A study of Homo sapiens with 45 samples.

Results

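FOXA1 was knocked down in HCC1428, an established cell line from an invasive ductal carcinoma of the breast, and messenger RNA was compared with that of HCC1428 cells given a control siRNA with no target. An siRNA is a short double-stranded RNA that leads to cleavage of the transcripts it pairs with. Both groups also received estradiol (E2), the hormone that activates the estrogen receptor. The comparison used the 3 libraries of the group siFOXA1_E2 and the 3 of siNT_E2, numbered 2 to 4 in the labels, which are 6 of the 45 libraries of the series. All genes were followed, and 18286 of the 57353 gene symbols counted had enough reads to be tested in this line. Differences are siFOXA1_E2 minus siNT_E2 on the log2 scale with their standard error (SE), levels are in CPM, counts scaled to the library total, and called genes are those with an adjusted p under 0.05.

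The series holds the same 5 groups of 3 libraries in HCC1428 and in a pair of lines from invasive lobular carcinoma, MM134 (that is, MDA-MB-134-VI) and MM330 (that is, MDA-MB-330). All cells had been kept for 3 days in serum stripped of hormones, were transfected with siRNA, and 24 h later received 100 pM E2 or the vehicle, 0.01% ethanol, for 24 h. The group siNT had the non-targeting siRNA with vehicle, and siER_E2 and siMDC1_E2 had an siRNA against the estrogen receptor gene ESR1 or against MDC1, with E2. Nothing in the labels ties the replicates to separate cultures. The p-values therefore measure the spread between these libraries, which may be technical, and the sequence or number of siRNAs per target was not given in the sources used here.

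FOXA1 is a forkhead transcription factor of luminal breast cells that binds nucleosomal DNA and opens chromatin, and the estrogen receptor binds many of its enhancers at places where FOXA1 is present. The receptor, once bound by E2, induces genes such as GREB1, PDZK1, TFF1 and CCND1 and drives cells that were held without hormone into the cell cycle. MDC1 is a scaffold protein of the response to DNA breaks.

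The 15 HCC1428 libraries held 23.2 to 35.1 M counts each. Keratins and adhesion genes of luminal epithelium were present in every HCC1428 library (KRT8 between 3322 and 7761 CPM, CDH1 between 1081 and 1310 CPM), and ESR1 and GATA3 were expressed. Markers of other cell types were also read. Of 12 fibroblast markers, COL3A1, LUM, PDGFRA and POSTN were at 0 in all 15 libraries. So were 3 of 14 immune markers, among them MS4A1 and TYROBP, and CDH5 and ROBO4 of 11 endothelial markers. The other markers had counts in at least 1 library. COL1A1 was the highest fibroblast marker, with a mean of 52.7 CPM over the 15 libraries. The library siNT_E2 replicate 2 stood apart: 0.4165% of its counts fell on processed pseudogenes, copies of messenger RNAs in the genome, beside 0.1361 to 0.1436% in the other 5 libraries compared. Of the other HCC1428 groups, 2 of 3 siER_E2 libraries (0.3802 and 0.3712%) and 2 of 3 siNT libraries (0.3952 and 0.3866%) were also of this kind, and no siMDC1_E2 library was. Among the lobular libraries compared further on, MM134 siFOXA1_E2 replicate 1 (0.4925%) and MM330 siNT_E2 replicate 1 (0.3441%) were of this kind. In HCC1428, processed pseudogenes had 26 calls higher and 145 lower among 883 tested, and 25 and 29 among 932 without siNT_E2 replicate 2. No pseudogene is therefore named here, and counts are also given without that library where it matters. Mitochondrially encoded genes took 16.96, 17.15 and 17.85% of counts in siFOXA1_E2 and 14.33, 11.67 and 11.81% in siNT_E2. In bulk RNA, fewer cells of a kind and less RNA per cell cannot be told apart.

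FOXA1 itself (ENSG00000129514.5, chr14:37589984-37596059, minus strand, GRCh38) checked the labels. Its level was 274, 277 and 261 CPM in the siNT_E2 libraries and 82.8, 85.2 and 91.9 CPM in the siFOXA1_E2 libraries. The groups did not overlap, and the means of 271 ± 8.5 and 86.6 ± 4.7 CPM (SD, n = 3 each) differed by -1.64 ± 0.05 on the log2 scale, a 3.13-fold reduction (adjusted p = 2e-15). In the groups with other siRNAs FOXA1 stood higher, at 457 ± 16 CPM in siNT, 419 ± 24 in siER_E2 and 318 ± 1.7 in siMDC1_E2. The related genes FOXA2 and FOXA3 had means below 1 CPM in both groups and were not tested. ESR1 (chr6:151656691-152129619, plus strand) was at 405, 419 and 416 CPM in siNT_E2 and at 370, 371 and 371 CPM in siFOXA1_E2, a small fall of -0.16 ± 0.03 (adjusted p = 0.00058), while the siRNA against it gave 206 CPM in siER_E2. MDC1 transcripts were also lower after the FOXA1 siRNA, with 168 ± 11 CPM in siNT_E2 and 90.2 ± 1.7 CPM in siFOXA1_E2 (-0.90 ± 0.06, adjusted p = 2.4e-10).

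FOXA1 knockdown was followed by broad change in both directions. Of the 18286 genes, 9809 were called (53.6%), 4412 of them higher (24.1%) and 5397 lower (29.5%), with a median difference of -0.03 over all genes. A change of at least 2-fold was called for 895 genes higher (4.89%) and 1133 lower (6.2%). These shares are the background against which counts in gene lists are given. Protein-coding genes, which fill most of the lists, were called more often: 61.6% of 13661, with 3516 higher and 4903 lower. Some lists lay near or below that share: ribosome biogenesis (60.7%), unfolded protein and amino acid stress (53.3%) and epidermal differentiation (50%). So did mesenchymal transition (50%), interferon response (48.4%) and cytokines and NF-kB targets (42.9%), while mitosis and DNA replication were at 100%.

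Calcium-binding proteins of the S100 family led the genes that rose. S100A8 (ENSG00000143546.9, chr1:153390032-153391188) and S100A9 (ENSG00000163220.10, chr1:153357854-153361027) lie near each other on chromosome 1 and encode both chains of calprotectin, a protein abundant in neutrophils and inflamed epithelium. S100A8 was at 7.02, 6.85 and 6.36 CPM in siNT_E2 and at 156, 168 and 150 CPM in siFOXA1_E2 (4.55 ± 0.08, adjusted p = 1.1e-17). S100A9 went from 1.04, 1.47 and 0.681 CPM to 44.1, 42.9 and 39.4 CPM (5.36 ± 0.17, adjusted p = 1e-14). Every library with the FOXA1 siRNA was far above every other library for both genes, and the receptor knockdown gave no comparable level: siFOXA1_E2 exceeded siER_E2 by 4.15 for S100A8 and by 4.73 for S100A9.

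KCNJ13, an inwardly rectifying potassium channel, was at 1.91, 1.21 and 1.7 CPM in siNT_E2 and at 24.8, 26.6 and 27.3 CPM in siFOXA1_E2 (3.99 ± 0.12, adjusted p = 7.8e-15). It was also well above siNT_E2 in hormone-deprived cells (12.5 CPM in siNT) and after receptor knockdown (14.4 CPM). EGR2, an early-response transcription factor, was at 1.25, 1.29 and 0.879 CPM in siNT_E2 and at 15.1, 15.2 and 16.9 CPM in siFOXA1_E2 (3.80 ± 0.21, adjusted p = 1.7e-11). Unlike KCNJ13, it was low in both other settings, with 0.169 CPM in siNT and 0.323 CPM in siER_E2. For both genes the siFOXA1_E2 libraries lay above all others compared.

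The remaining genes among the 12 largest rises (called, protein-coding, at least 10 CPM in a group, no overlap between groups) were enzymes, membrane proteins and receptors. The metalloreductase STEAP4 went from 2.5 to 26.7 CPM (3.40 ± 0.16), histidine ammonia lyase HAL from 2.47 to 27.7 CPM (3.49 ± 0.11), angiotensin-converting enzyme ACE from 2.35 to 17.8 CPM (2.91 ± 0.17) and the retinol dehydrogenase RDH16 from 6.33 to 46.1 CPM (2.86 ± 0.08). MUC15, a cell-surface mucin, rose by 3.26 ± 0.16, GNAT3, the taste G protein gustducin, by 3.20 ± 0.13, and FAM83A, a signalling adaptor, went from 16 to 96.9 CPM. CX3CR1, the fractalkine receptor, rose from 1.64 to 11.1 CPM (2.77 ± 0.16), beside 11.2 CPM in siNT and 11.4 CPM in siER_E2. The difference of siFOXA1_E2 from siNT was -0.01 (adjusted p = 0.94) and from siER_E2 -0.05 (adjusted p = 0.81).

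**Figure D1:**
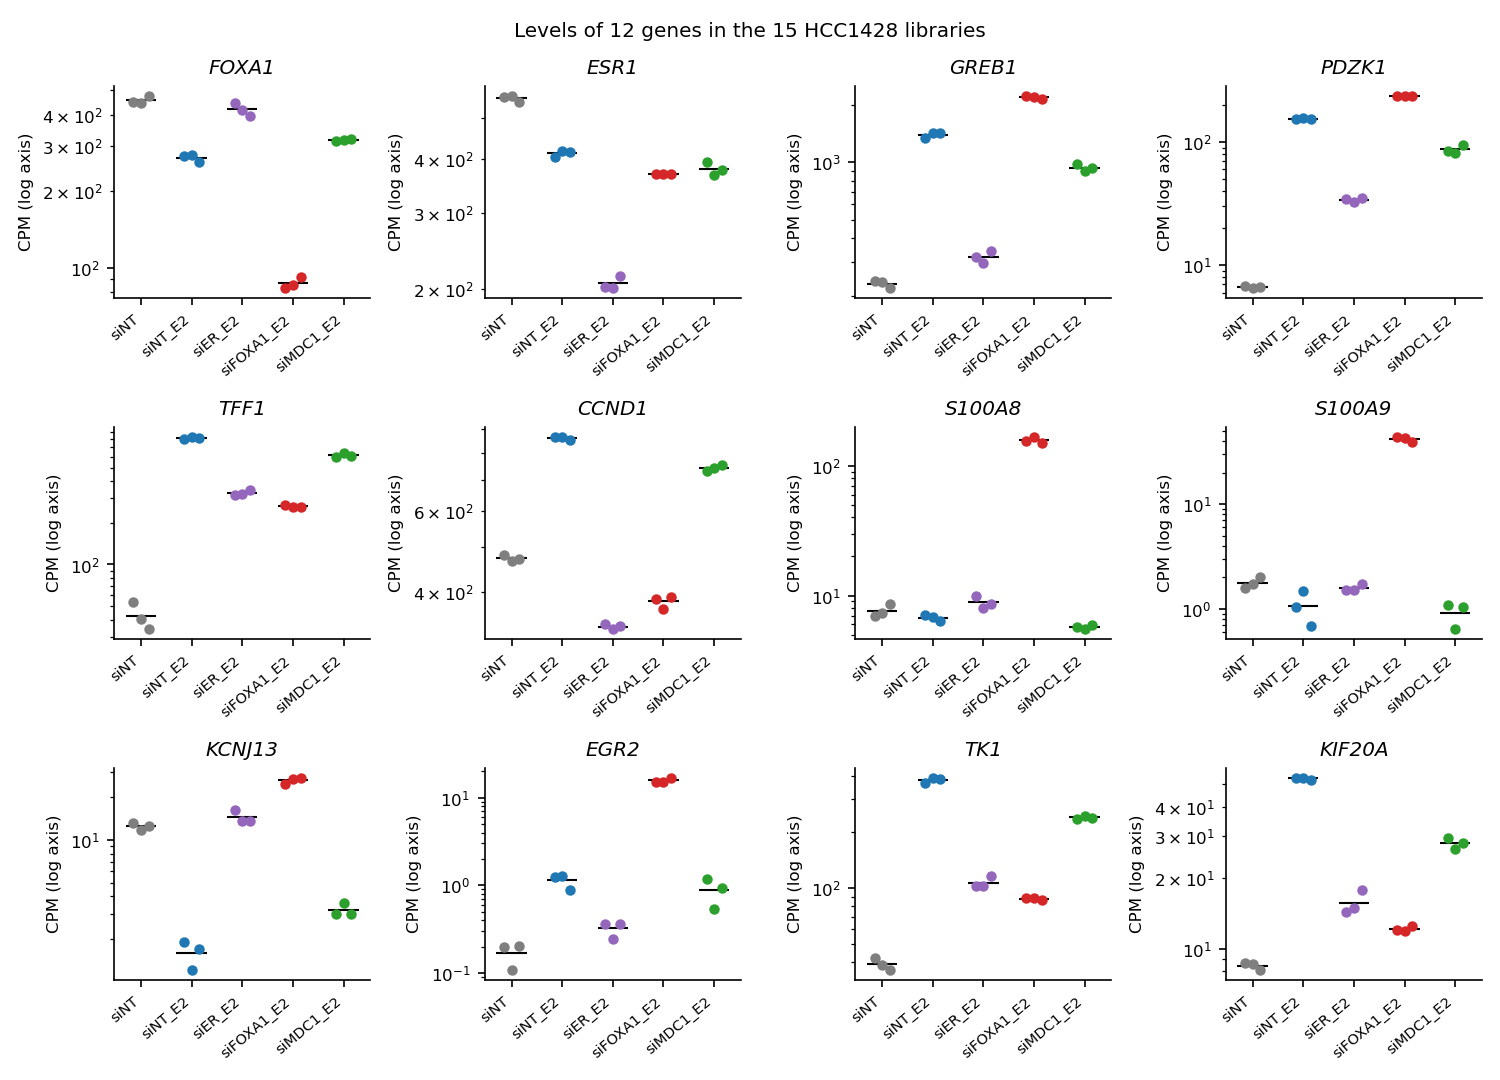
Level in CPM (log axis) of 12 genes in each of the 15 HCC1428 libraries by group; points are libraries and black lines are group means. S100A8 and S100A9 stood high in siFOXA1_E2 alone (means of 158 and 42.1 CPM), TK1 and KIF20A fell to means of 87.6 and 12.1 CPM, and GREB1 and PDZK1 were highest in siFOXA1_E2 (2186 and 236 CPM).

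The genes named next had the 12 largest falls by the same rule, and all but ITGAL are known from cell division and S phase. KIF20A, a kinesin of cytokinesis (ENSG00000112984.11, chr5:138178719-138187715), was at 53.3, 53.3 and 52.3 CPM in siNT_E2 and at 12, 11.9 and 12.5 CPM in siFOXA1_E2 (-2.13 ± 0.07, adjusted p = 1.6e-14). TK1, the thymidine kinase of S phase (ENSG00000167900.11, chr17:78174075-78187233), was at 367, 392 and 386 CPM and at 88.6, 87.9 and 86.5 CPM (-2.12 ± 0.05, adjusted p = 6.2e-16). Both sets of libraries were tight and far apart, and both genes remained above the level of hormone-deprived cells (8.44 CPM for KIF20A and 39 CPM for TK1 in siNT). Kinetochore subunits NDC80 (-2.25 ± 0.16), SPC24 (-2.10 ± 0.10), SPC25 (-2.10 ± 0.07), SKA1 (-2.19 ± 0.09) and CENPU (-2.18 ± 0.13) fell by similar amounts. The same group held UBE2C, the ubiquitin-conjugating enzyme of the anaphase-promoting complex (-2.13 ± 0.09), the spindle protein FAM83D (-2.15), the anaphase helicase ERCC6L (-2.13) and cyclin A2, CCNA2 (-2.12). ITGAL, an integrin subunit known from leukocytes, went from 11.6, 11.2 and 12.5 CPM to 2.73, 2.34 and 2.23 CPM (-2.27 ± 0.12, adjusted p = 6e-12).

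The cell-cycle lists fell as a whole. All 30 measured genes of the mitosis list were called lower, with a median of -1.89, beside 29.5% called lower and a median of -0.03 over all genes tested. Examples by smallest p were the spindle assembly factor TPX2 (136 to 42 CPM, -1.69 ± 0.04), the kinesin KIF11 (89.4 to 24.1 CPM, -1.89 ± 0.05), the transcription factor FOXM1 (342 to 93.9 CPM, -1.86 ± 0.05) and survivin, BIRC5 (147 to 38 CPM, -1.96 ± 0.05). The proliferation antigen MKI67, chosen after its values were seen, went from 755, 821 and 806 CPM to 238, 236 and 240 CPM (-1.74 ± 0.07). The smallest fall in the list was that of CDK1, the kinase that starts mitosis, from 229 to 177 CPM (-0.37 ± 0.05, adjusted p = 2.3e-06).

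DNA replication genes behaved alike: all 38 were called lower, with a median of -1.75. The helicase subunits MCM2 (-1.86 ± 0.04) and MCM7 (-1.77 ± 0.04) and the initiation factor MCM10 (-2.07 ± 0.05) were among those with the smallest p, with TK1. Of 33 genes of the DNA damage response, 28 were called lower and 1 higher, with a median of -1.12. The nuclease EXO1 (73.5 to 18.2 CPM), the Fanconi anemia protein FANCI (114 to 29.3 CPM), BRCA1 (120 to 34.6 CPM) and the checkpoint adaptor CLSPN (83.9 to 31.9 CPM) each fell by between -2.01 and -1.39. NBN, a sensor of DNA breaks, was the call in the other direction, at 250 ± 23 and 275 ± 4.6 CPM (0.14 ± 0.05, adjusted p = 0.017), and its call was lost when siFOXA1_E2 replicate 3 or siNT_E2 replicate 2 was left out.

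Short elements known for cell-cycle control were searched for in the promoters of these genes, and 4 promoters are shown because they hold such elements and their genes fell by between -1.99 and -1.77. Sequences are RefSeq (GRCh38.p14), the 250 bases before the transcription start, 5′ to 3′ on the gene's strand. KIF11 (chr10:92592880-92593129, plus strand) and KIF23 (chr15:69414099-69414348, plus strand), another kinesin of the mitosis list that fell by -1.96, have in capitals the cell-cycle homology region TTTGAA (CHR) and the CCAAT box. MCM7 (chr7:100101398-100101647, minus strand) and TYMS (chr18:657403-657652, plus strand), the thymidylate synthase gene (153 to 38.6 CPM, -1.99 ± 0.05), have in capitals the E2F element TTTNNCGC and, in MCM7, the CCAAT box. Both strands were searched, so an element can stand as its reverse complement.

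KIF11: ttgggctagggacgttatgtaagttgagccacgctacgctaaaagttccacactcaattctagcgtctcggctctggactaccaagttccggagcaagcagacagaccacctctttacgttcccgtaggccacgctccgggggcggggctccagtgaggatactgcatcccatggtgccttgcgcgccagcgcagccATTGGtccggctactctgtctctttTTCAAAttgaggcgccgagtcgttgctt

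KIF23: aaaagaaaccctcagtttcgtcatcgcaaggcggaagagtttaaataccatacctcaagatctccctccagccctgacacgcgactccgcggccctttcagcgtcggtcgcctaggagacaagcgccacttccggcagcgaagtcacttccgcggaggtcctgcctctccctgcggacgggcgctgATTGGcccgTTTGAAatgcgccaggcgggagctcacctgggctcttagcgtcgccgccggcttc

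MCM7: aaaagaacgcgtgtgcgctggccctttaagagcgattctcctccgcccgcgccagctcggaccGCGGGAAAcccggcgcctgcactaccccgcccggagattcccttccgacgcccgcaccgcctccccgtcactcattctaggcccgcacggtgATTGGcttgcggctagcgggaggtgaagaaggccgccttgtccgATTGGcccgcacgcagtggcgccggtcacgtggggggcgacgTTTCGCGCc

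TYMS: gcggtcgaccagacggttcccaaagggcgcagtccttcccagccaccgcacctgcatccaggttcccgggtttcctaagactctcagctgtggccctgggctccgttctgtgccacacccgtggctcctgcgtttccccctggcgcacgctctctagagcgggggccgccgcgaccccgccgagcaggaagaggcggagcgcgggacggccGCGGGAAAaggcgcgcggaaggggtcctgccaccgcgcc

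In KIF11 the CHR began 28 bases before the start and the CCAAT box 53 bases before it, and in KIF23 they lay at 55 and 64 bases. RefSeq promoters were matched for 11437 of the 18286 tested genes. CHR was found in 14 of 24 matched mitosis promoters (58.3%), beside 8.3% of all matched promoters, and CCAAT in 19 of 24 (79.2%), beside 34.6%. The E2F element was found in 15 of 32 replication promoters (46.9%), beside 8.66% of all. The other way round, CHR was in 1 of 32 replication promoters (3.12%) and the E2F element in 2 of 24 mitosis promoters (8.33%), while CCAAT was in 17 of 32 replication promoters (53.1%). Over all genes called at least 2-fold higher or lower, the contrast was smaller. CHR was in 12.2% of promoters of the higher and 15.6% of the lower genes, CCAAT in 31.3 and 43.8%, and E2F in 3.65 and 11.9%. Of the forkhead motif, TGTTTAC was found in 1.86% of all promoters, in 2.15% of 466 promoters of genes called at least 2-fold higher and in 0.894% of 671 of genes called at least 2-fold lower. For its variant TATTTAC the shares were 1.3, 1.72 and 1.94%. These are letter matches in a short window and name no bound site.

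**Figure D2:**
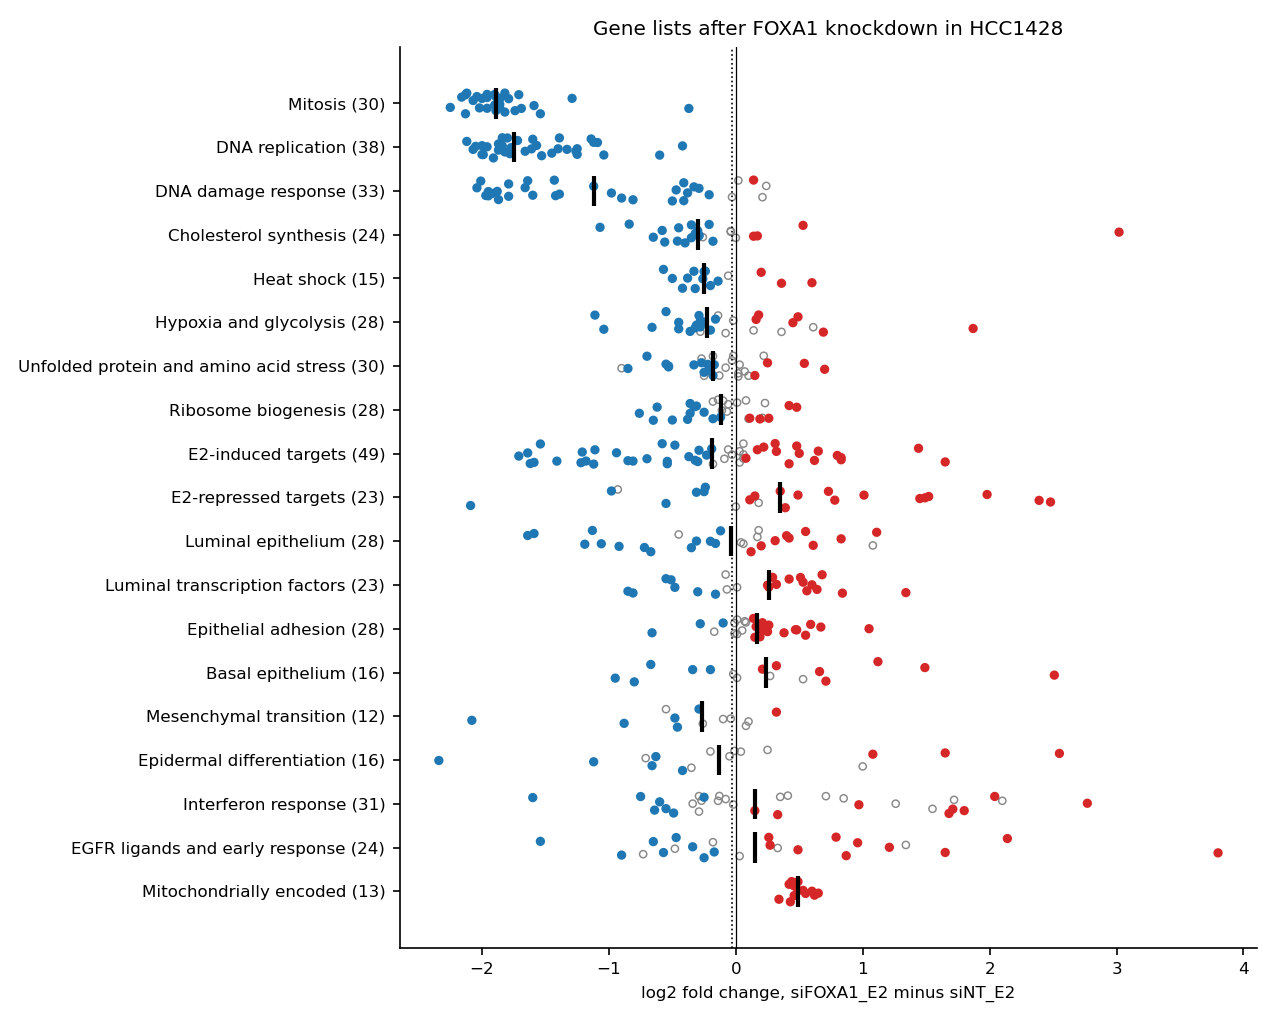
Log2 difference siFOXA1_E2 minus siNT_E2 of each tested gene in 19 gene lists; red points are called higher, blue called lower, open grey not called, black bars are list medians and the dotted line is the median of all genes. Mitosis (median -1.89) and DNA replication (-1.75) lie wholly below 0, mitochondrially encoded genes (0.49) wholly above it, and the E2-induced list spreads to both sides (-0.19).

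Estrogen-induced genes split. Of 49 measured genes of a list of E2-induced targets, 25 were called lower and 15 higher, with a median of -0.19, beside 29.5 and 24.1% of all genes. Among those that fell was TFF1, a secreted trefoil peptide and standard receptor target (chr21:42362282-42366594, minus strand), at 804, 837 and 818 CPM in siNT_E2 and at 267, 262 and 261 CPM in siFOXA1_E2 (-1.64 ± 0.09, adjusted p = 1.1e-11). CCND1, cyclin D1 (chr11:69641087-69654474, plus strand), was at 866, 868 and 855 CPM and at 387, 367 and 391 CPM (-1.18 ± 0.03, adjusted p = 1.1e-15). For both genes the groups lay far apart, and TFF1 still exceeded its level in siNT (42.6 CPM) while CCND1 fell below it (474 CPM). The IGF-binding protein IGFBP4 (423 to 159 CPM, -1.41 ± 0.05) and the transcription factor MYBL1 (102 to 33.2 CPM, -1.62 ± 0.05) fell likewise. STC2, a secreted glycoprotein, fell from 216 to 71.9 CPM (-1.59 ± 0.05), although in this line it was higher without E2 (511 CPM in siNT).

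GREB1, a receptor cofactor induced by E2 (ENSG00000196208.13, chr2:11482341-11642788, plus strand), moved the other way. It was at 1339, 1421 and 1414 CPM in siNT_E2 and at 2229, 2199 and 2131 CPM in siFOXA1_E2 (0.65 ± 0.05, adjusted p = 1.2e-09), with 231 CPM in siNT and 319 CPM in siER_E2. PDZK1, a scaffold protein (chr1:145670852-145708148, minus strand), was at 153, 155 and 153 CPM and at 237, 237 and 235 CPM (0.62 ± 0.04, adjusted p = 4.1e-10), with 6.64 CPM in siNT and 34.1 CPM in siER_E2. For both, the siFOXA1_E2 libraries were the highest of all 15, above E2 with the non-targeting siRNA. The apoptosis inhibitor BCL2 (90.8 to 162 CPM, 0.83 ± 0.05), the progesterone receptor PGR (108 to 145 CPM, 0.42 ± 0.05) and the small heat shock protein HSPB8 (377 to 1022 CPM, 1.44 ± 0.04) rose as well. MYC differed little (54.7 and 61.5 CPM, 0.17 ± 0.05, adjusted p = 0.0058). The chemokine gene CXCL12 stayed below 1 CPM in every group.

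**Figure D3:**
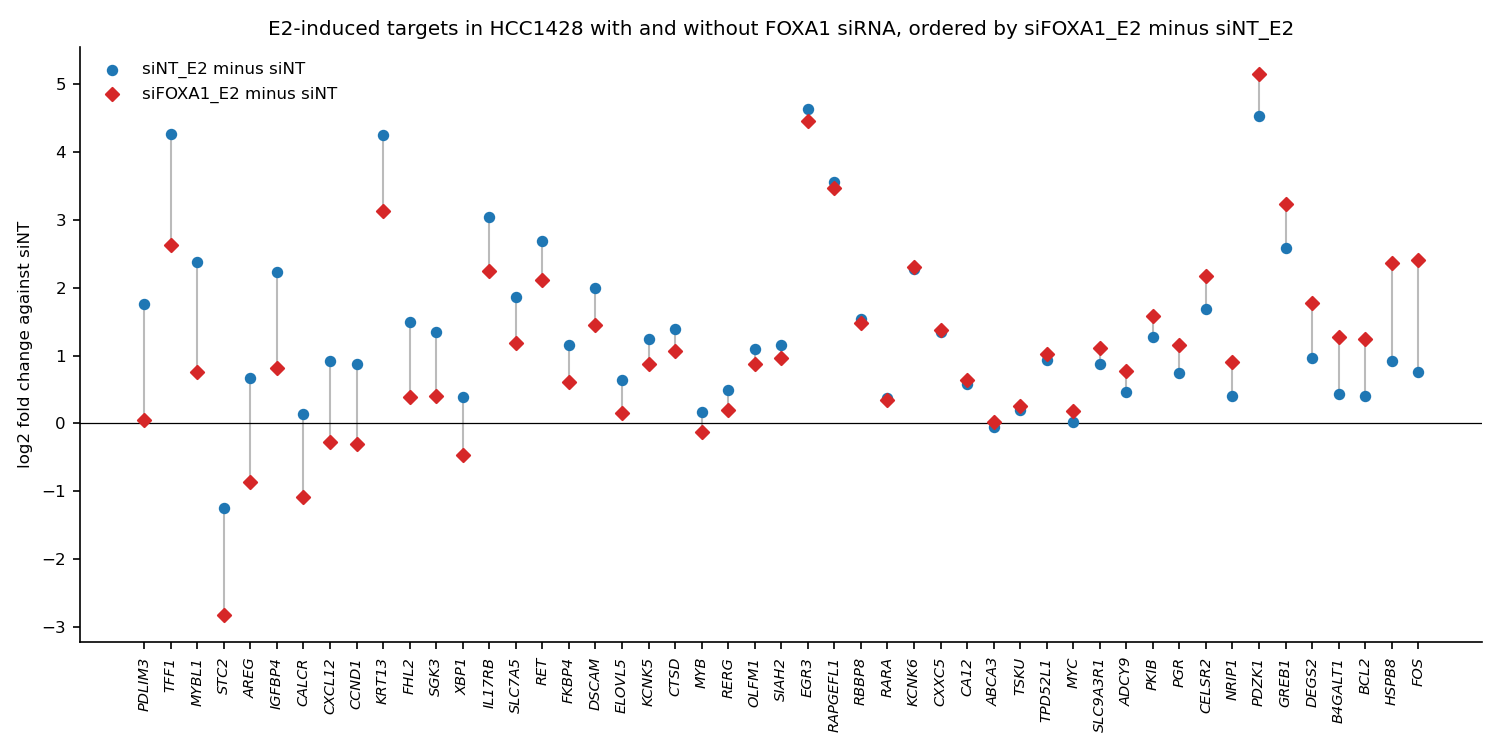
Log2 difference from hormone-deprived siNT of each E2-induced target in HCC1428 with E2 (blue points, siNT_E2 minus siNT) and with E2 and FOXA1 knockdown (red diamonds, siFOXA1_E2 minus siNT), genes ordered by the difference between siFOXA1_E2 and siNT_E2; both share the siNT libraries. PDZK1 (5.15) and GREB1 (3.24) kept red values above blue ones, while TFF1 (2.63) and CCND1 (-0.31) had red values below them.

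Genes known to be repressed by E2 rose more often than they fell: 14 of 23 were called higher and 6 lower, with a median of 0.35. The growth factor receptor EGFR was at 30.2, 34.3 and 29.6 CPM in siNT_E2 and at 86.6, 88 and 88.4 CPM in siFOXA1_E2 (1.49 ± 0.05), and ERBB2 rose from 204 to 351 CPM (0.78 ± 0.03). The cholesterol exporter ABCA1 rose from 1.99 to 11 CPM (2.48 ± 0.11) and the ligand WNT11 from 2.86 to 14.8 CPM (2.39 ± 0.11), WNT11 staying below its level in siNT (25.4 CPM). DEPP1, a FOXO-regulated gene read as part of the fixed panel, rose from 1.76 to 7.01 CPM (1.98 ± 0.12), beside 38 CPM in siNT and 41.5 CPM in siER_E2. Against the direction of the list, the vitamin D hydroxylase CYP24A1 fell from 5.55 to 1.3 CPM (-2.09 ± 0.19), and BIK, NDRG1, SMAD6, BMF and ID2 were called lower.

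Transcription factors of the luminal lineage were called higher in 13 of 23 cases and lower in 7, with a median of 0.26. ELF5, a regulator of alveolar cells, was at 44.2, 46.8 and 49.5 CPM in siNT_E2 and at 118, 120 and 118 CPM in siFOXA1_E2 (1.34 ± 0.06, adjusted p = 4.6e-13), and GRHL1 rose from 92.7 to 144 CPM (0.64 ± 0.03). GATA3 rose slightly (959 to 1143 CPM, 0.25 ± 0.06, adjusted p = 0.00092), below its level in siNT (1702 CPM). SPDEF went from 214, 225 and 202 CPM to 117, 122 and 126 CPM (-0.81 ± 0.04), and XBP1, also an E2-responsive gene, from 335, 341 and 335 CPM to 183, 193 and 183 CPM (-0.85 ± 0.04). SPDEF was thus lowest in siFOXA1_E2 among the group means (369 in siNT and 367 in siER_E2), as was XBP1 (257 and 248 CPM). TFAP2C, NR2F2, KLF5, MYB and ESR1 were the other members called lower.

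Luminal structural and secreted genes were divided, with 13 of 28 called lower and 9 higher and a median of -0.04, which was -0.15 with the replicate number as a block. TFF1 and STC2, both given above, were among those with the smallest p, with the secreted glycoprotein SCUBE2, which fell from 397 to 191 CPM (-1.06 ± 0.03), and the prolactin receptor PRLR, which rose from 375 to 813 CPM (1.11 ± 0.04). Keratins KRT18 (0.61 ± 0.03) and KRT8 (0.31 ± 0.04) rose, with the reservation that both have many near-identical pseudogene copies that can share reads. In the basal epithelium list 16 of 30 genes had enough counts, of which 7 were called higher and 5 lower (median 0.24). TP63, the master factor of basal cells, rose from 1.94, 1.55 and 1.65 CPM to 9.26, 8.9 and 11.2 CPM (2.51 ± 0.17, adjusted p = 3.7e-10), while the adhesion receptor CD44 (296 to 170 CPM, -0.80 ± 0.04) and caveolin CAV1 (14.5 to 7.56 CPM, -0.95 ± 0.08) fell. The mean of TP63 lay below 2 CPM in each of the other groups.

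Genes of epidermal differentiation gave 3 called higher and 5 lower of 16 tested (median -0.13). Involucrin, IVL, a cornified envelope protein, rose from 4.15 to 24.5 CPM (2.55 ± 0.16), and SBSN and DSG1 were called higher at levels below 1 CPM. The DSG1 call was lost with limma-voom (adjusted p = 0.063), with the replicate number as a block (adjusted p = 0.066) and when siFOXA1_E2 replicate 1 or 3 or siNT_E2 replicate 2 or 3 was left out (adjusted p = 0.059 to 0.11). The keratins KRT13 (75.2 to 34.5 CPM, -1.12 ± 0.07), KRT80 (173 to 129 CPM, -0.42 ± 0.04) and KRT4 (3.09 to 0.604 CPM, -2.34 ± 0.22) fell.

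Cell adhesion genes of epithelium were mostly higher: 17 of 28 were called higher and 3 lower, with a median of 0.17. NECTIN4, an adherens junction protein, went from 52.3, 53.8 and 54.4 CPM to 108, 117 and 107 CPM (1.05 ± 0.04), and envoplakin EVPL (0.67 ± 0.04), cingulin CGN (0.55 ± 0.04) and beta-catenin CTNNB1 (0.59 ± 0.05) rose. E-cadherin, CDH1, differed by 0.01 ± 0.03 (1087 ± 8.9 and 1094 ± 12 CPM, adjusted p = 0.81). PARD6B, a polarity protein, fell (-0.66 ± 0.06), as did TJP1. CTNNA1 was called lower too, but its call was lost under several of the alternatives tried. Of the mesenchymal list only 12 of 28 genes were tested, 5 called lower and 1 higher. The matricellular protein CCN1 (31.3 to 17.1 CPM, -0.88 ± 0.07) and the fibronectin receptor chain ITGA5 (2.54 to 0.593 CPM, -2.08 ± 0.19) fell, and the integrin ITGAV rose (0.32 ± 0.04).

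Among androgen receptor targets, which FOXA1 also controls in prostate cells, 5 of 17 were called higher and 7 lower (median 0.06). The chaperone FKBP5 fell from 64 to 24 CPM (-1.41 ± 0.05), beside 23.9 CPM in siER_E2, and the sorbitol dehydrogenase SORD fell (-0.76 ± 0.06). STEAP4, named above, the protease TMPRSS2 (15.7 to 29.9 CPM, 0.92 ± 0.08) and the claudin CLDN8 (0.239 to 2.81 CPM, 3.50 ± 0.34) rose. Ligands of EGFR and early-response genes gave 10 called higher and 8 lower of 24, with a median of 0.15. Leaving out siFOXA1_E2 replicate 2 reduced the 8 to 5, and without siNT_E2 replicate 2 or replicate 4 the median was 0.04 or 0.30. EGR2, the stress-response gene IER3 (26.4 to 116 CPM, 2.14 ± 0.06) and the AP-1 members FOSL2 (0.79 ± 0.04) and JUNB (0.96 ± 0.06) rose, and the ligand AREG, itself E2-induced, fell from 9.07 to 3.12 CPM (-1.54 ± 0.12).

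Targets of p53 moved in both directions, with 10 of 24 called higher, 6 lower and a median of 0.10. MDM2, the p53 ubiquitin ligase (249 to 140 CPM, -0.82 ± 0.04), the repair factor DDB2 (-1.20 ± 0.06), the nuclease AEN (-1.38 ± 0.08) and the cyclin-dependent kinase inhibitor CDKN1A (42.8 to 20.3 CPM, -1.08 ± 0.07) fell. TP53INP1 rose from 50.8 to 89.7 CPM (0.82 ± 0.05), beside 233 CPM in siNT and 303 CPM in siER_E2.

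Interferon-responsive genes depended on 1 library. Of 31 tested genes 8 were called higher and 7 lower, with a median of 0.15, and without siFOXA1_E2 replicate 2 the median was -0.41 and 11 were called lower, while without siFOXA1_E2 replicate 1 there were 3 called lower. IFI6, an interferon-induced mitochondrial protein, was at 5.35, 75.2 and 5.21 CPM in siFOXA1_E2 and at 8.21, 7.02 and 4.85 CPM in siNT_E2 (2.10 ± 0.94, adjusted p = 0.068). Replicate 2 alone was high, and IFI6 was also uneven within siNT and siMDC1_E2, whose libraries ranged from 6.43 to 27.5 and from 4.28 to 69.5 CPM. IFI44 did not follow that library: it was at 11.2, 11.8 and 13.8 CPM in siNT_E2 and at 39.4, 41.9 and 39.3 CPM in siFOXA1_E2 (1.71 ± 0.08, adjusted p = 1.1e-12), with its neighbour IFI44L likewise higher (2.06 to 8.47 CPM, 2.04 ± 0.20). OAS3, an antiviral oligoadenylate synthetase, fell from 124 to 41 CPM (-1.60 ± 0.12), as did the deconjugating protease USP18 (-0.75 ± 0.10).

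Antigen presentation genes gave 7 called higher and 9 lower of 21, with a median of -0.10 that was -0.22 without siFOXA1_E2 replicate 2. Class II genes were on the higher side, at low levels. CIITA, their master regulator, rose from 1.48, 1.42 and 1.53 CPM to 6.29, 5.84 and 5.88 CPM (2.02 ± 0.25, adjusted p = 1.3e-06), HLA-DRA from 0.938 to 4.13 CPM (2.13 ± 0.28), and the invariant chain CD74 was also called higher (1.64). The peptide transporter TAP1 fell (51 to 37.1 CPM, -0.46 ± 0.05). HLA genes are similar in sequence and polymorphic, so reads may have been divided among them. Of 14 tested cytokine and NF-kB genes, 2 were called higher and 4 lower, and leaving out siNT_E2 replicate 3 reduced the 4 to 2. The chemokine CCL28 rose from 28.2, 27.9 and 25.1 CPM to 133, 141 and 131 CPM (2.32 ± 0.08, adjusted p = 1.2e-14), and interleukin IL20 fell from 80.2 to 28.2 CPM (-1.51 ± 0.08).

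Of the metabolic lists, cholesterol synthesis and hypoxia and glycolysis leaned lower, and lipid genes were divided. In cholesterol synthesis 16 of 24 genes were called lower and 4 higher (median -0.30), with FDPS (-0.65 ± 0.05), SQLE (-0.46 ± 0.03) and EBP (-1.07 ± 0.08) lower and HMGCS1 higher (80.1 to 116 CPM, 0.53 ± 0.04). The 4 called higher became 2 without siFOXA1_E2 replicate 2 or siNT_E2 replicate 2. Fatty acid and lipid genes had 11 of 26 called higher and 10 lower (median 0.10). The fatty acid transporter CD36 rose from 33.6, 33.6 and 39.1 CPM to 161, 158 and 161 CPM (2.17 ± 0.05, adjusted p = 6.2e-16), with means of 33.4 to 35.5 CPM in the other 3 groups. The elongase ELOVL6 rose (1.05 ± 0.05), and CPT1A, which takes fatty acids into mitochondria, fell (125 to 68.9 CPM, -0.86 ± 0.04).

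Hypoxia and glycolysis genes were called lower in 15 of 28 cases and higher in 6 (median -0.23). Phosphofructokinase PFKP (157 to 73 CPM, -1.11 ± 0.04) and enolase ENO2 (45.5 to 22.1 CPM, -1.04 ± 0.05) fell, and the mTOR inhibitor DDIT4 rose from 11.6 to 42.7 CPM (1.87 ± 0.06), beside 44.4 CPM in siER_E2. Genes of the unfolded protein and amino acid stress responses gave 12 called lower and 4 higher of 30 (median -0.18, and -0.09 without siNT_E2 replicate 3), HERPUD1 rising (0.70 ± 0.04) and SEL1L falling (-0.53 ± 0.04), both factors of protein degradation at the endoplasmic reticulum. Of 28 ribosome biogenesis genes 12 were called lower and 5 higher (median -0.12), and the 5 became 3 without siFOXA1_E2 replicate 1 or 2 or siNT_E2 replicate 2. Heat shock genes were called lower in 11 of 15 cases, led by HSPA8 (2285 to 1543 CPM, -0.57 ± 0.03), and higher in 3, led by HSPB1 (1941 to 2948 CPM, 0.60 ± 0.04).

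All 13 mitochondrially encoded messenger RNAs were called higher, by 0.34 to 0.65, with a median of 0.49. MT-CO1, a subunit of cytochrome c oxidase, was at 22207, 19397 and 19215 CPM in siNT_E2 and at 29519, 29613 and 30036 CPM in siFOXA1_E2 (0.55 ± 0.05, adjusted p = 6.7e-08). Against hormone-deprived siNT cells the median of the list was 0.10 and MT-CO1 differed by 0.09 (adjusted p = 0.16). A smaller rise over siNT_E2 was also seen with the other siRNAs, with list medians of 0.30 in siER_E2 and 0.30 in siMDC1_E2. Compared directly, 7 of 13 genes were called higher in siFOXA1_E2 than in siER_E2 and 0 lower (median 0.19). Against siMDC1_E2 the numbers were the same. After FOXA1 knockdown in MM134 and MM330 the list median was -0.10 and 0.03. The mitochondrial share of counts given above moved with this list, and its part in the result was not tested.

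Marker sums of fibroblasts and endothelium were highest in siNT_E2, and lower in siFOXA1_E2 as in each other group. The fibroblast markers summed to 101 to 103 CPM in siNT_E2 and 65.1 to 68 CPM in siFOXA1_E2, mostly from COL1A1, with 2 of 3 tested members called lower. Endothelial markers summed to 8.87 to 10.3 and 3.75 to 4.65 CPM, mostly from ESAM, with both tested members lower. Immune markers summed to 6.29 to 6.9 and 5.87 to 6.7 CPM, mostly from CD8A, and these ranges overlap. In the remaining groups, fibroblast sums were 47.4 to 49.4 CPM in siNT, 50.5 to 58.7 in siER_E2 and 60.2 to 65.9 in siMDC1_E2. Endothelial sums there were 1.7 to 2.77, 2.64 to 3.26 and 5.86 to 6.32 CPM. The part of these markers in other results was not tested.

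Whether the FOXA1 knockdown differed from the receptor knockdown was tested directly, siFOXA1_E2 minus siER_E2. Here 7849 genes were called (42.9%), 3899 higher (21.3%) and 3950 lower (21.6%). In the libraries of lower pseudogene share alone, with 1 siER_E2 library that is assumed to vary like the other groups, 6102 were called. The E2-induced list set the knockdowns apart: 38 of 49 genes were higher in siFOXA1_E2 and 4 lower, with a median of 0.91 beside -0.02 over all genes. GREB1 was higher by 2.78, PDZK1 by 2.79, PGR by 1.53 and TFF1 lower by -0.32. Cell-cycle lists differed less. In the mitosis list 20 of 30 genes were lower in siFOXA1_E2, with a median of -0.28. In DNA replication 2 of 38 were higher and 13 lower (median -0.11), and in the damage response 5 of 33 were higher and 3 lower (median -0.02). MKI67 stood at 234 CPM in siER_E2 and 238 CPM in siFOXA1_E2.

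The genes highest in siFOXA1_E2 against siER_E2 by the naming rule were EGR2 (5.58), the gap junction protein GJA1 (4.93), S100A9, S100A8 and STEAP4 (3.82). Because EGR2 lay below 1 CPM in siER_E2, the size of its difference rests on few counts. GJA1 was at 46.7, 44.4 and 45.6 CPM in siFOXA1_E2 and at 1.5 CPM in siER_E2, and it has a near-identical pseudogene that could share its reads. The lowest were the glutamate receptor GRM4 (15.5 CPM in siER_E2 and 1.19 CPM in siFOXA1_E2, -3.69), coagulation factor F7 (29.6 and 3.38 CPM, -3.13), BCAS1 (512 and 59.9 CPM, -3.10), the organic cation transporter SLC22A4 (51.9 and 7.39 CPM, -2.81) and DEPP1 (-2.56). Of these, BCAS1, a gene amplified in breast cancer, was also lower in siFOXA1_E2 than with the non-targeting siRNA: 179, 178 and 172 CPM in siNT_E2 against 58.5, 60 and 61.2 CPM (-1.56 ± 0.04). SLC22A4, in contrast, differed from siNT_E2 by -0.14 ± 0.11 (adjusted p = 0.29). In cholesterol synthesis 13 of 24 genes were higher in siFOXA1_E2 than in siER_E2 and 1 lower.

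**Figure D4:**
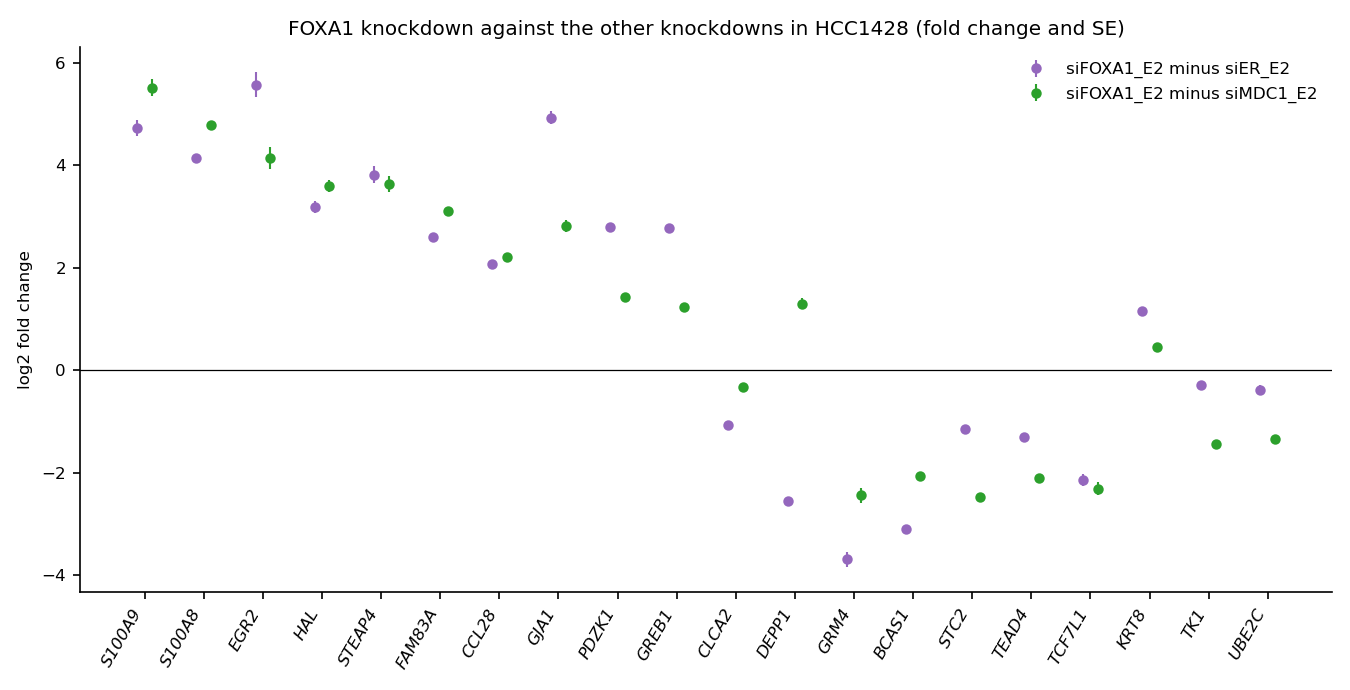
Log2 difference ± SE of siFOXA1_E2 from siER_E2 (purple) and from siMDC1_E2 (green) for named genes in HCC1428; both comparisons share the siFOXA1_E2 libraries. GREB1 lies at 2.78 and 1.23, S100A8 at 4.15 and 4.79, and BCAS1 at -3.10 and -2.07.

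Against the MDC1 knockdown 8294 genes were called (45.4%), 3609 higher (19.7%) and 4685 lower (25.6%). The cell-cycle lists were again lower in siFOXA1_E2: 29 of 30 mitosis genes (median -1.19), all 38 replication genes (median -1.23) and 25 of 33 damage response genes, with 2 of those higher. E2-induced genes were divided, 21 higher and 20 lower of 49 (median 0.01). The highest genes were S100A9 (5.52), S100A8 (4.79), EGR2 (4.15), STEAP4 (3.64) and HAL (3.60). The lowest were STC2 (-2.48), the Wnt effector TCF7L1 (-2.31), the lipase LIPH (-2.19), the YAP partner TEAD4 (-2.11) and the phospholipase PLCE1 (-2.11). TEAD4 was at 50.1, 52.5 and 53.2 CPM in siMDC1_E2, at 47.1, 54 and 50.6 CPM in siNT_E2 and at 11.9, 12.6 and 11.5 CPM in siFOXA1_E2.

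Set against hormone-deprived cells with the non-targeting siRNA, a comparison in which both the siRNA and E2 differ, 8875 genes were called (48.5%), 4588 higher (25.1%) and 4287 lower (23.4%). In the libraries of lower pseudogene share alone, with 1 siNT library, 7552 were called. The cell-cycle lists stood above the hormone-deprived level, with 26 of 30 mitosis genes (median 0.64) and 35 of 38 replication genes (median 0.69) called higher. Of E2-induced genes 39 were higher and 6 lower (median 0.97). TK1 differed by 1.17, MKI67 by 1.04 and TPX2 by 0.03 (adjusted p = 0.54). The highest genes were EGR2 (6.49), PDZK1 (5.15), S100A9 (4.57), EGR3 (4.46) and S100A8 (4.37), and the lowest GRM4 (-3.72), FOXI1 (-3.64), BCAS1 (-3.42), F7 (-3.32) and LIPH (-2.92). EGR2 lay below 1 CPM in siNT, so the size of its difference rests on few counts. EGR3, a relative of EGR2, was at 20.8 CPM in siNT_E2 and 18.3 CPM in siFOXA1_E2 (-0.18 ± 0.10, adjusted p = 0.13).

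The same knockdown in the lobular lines was compared through the difference between lines in its effect, MM134 or MM330 minus HCC1428, over 21447 genes. These differences share the HCC1428 libraries. FOXA1 went from 471 to 120 CPM in MM134 (-1.97) and from 486 to 134 CPM in MM330 (-1.86). In MM134 the effect differed for 6531 genes (30.5%), 3594 upward (16.8%) and 2937 downward (13.7%). In MM330 it differed for 4762 (22.2%), 2533 upward (11.8%) and 2229 downward (10.4%). Which direction had more calls depended on the processing. In MM134 there were 3356 upward and 3433 downward with RLE scaling, and 3460 and 3557 with DESeq2. In MM330 there were 1725 upward and 2030 downward with the compared groups alone. The library MM330 siFOXA1_E2 replicate 1 had the lowest total of the series (21.04 M). It held 18829 genes with a count, beside 24077 and 24894 in replicates 2 and 3. Without it, 2783 genes were called upward and 1992 downward.

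ESR1 differed between the lines. In MM134 it went from 573 to 117 CPM (-2.29) and in MM330 from 275 to 201 CPM (-0.45), and the effect differed from that in HCC1428 by -2.18 ± 0.07 (adjusted p = 9e-25) and -0.33 ± 0.07 (adjusted p = 0.00074). GREB1, which rose in HCC1428, fell in MM134 from 570 to 123 CPM (-2.21), a difference between lines of -2.90 ± 0.08 (adjusted p = 8.7e-28), and in MM330 was at 1549 and 1658 CPM (0.10, adjusted p = 0.14). PDZK1 fell from 66.1 to 5.9 CPM in MM134, 4.15 log2 units below its change in HCC1428 (-4.15 ± 0.12, adjusted p = 5.7e-27), and from 17.3 to 10.6 CPM in MM330. Among 49 E2-induced genes, the effect in MM134 was below that in HCC1428 for 31 and above it for 7 (median of the differences -0.64), and in MM330 for 20 and 15 (median -0.05).

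CCND1 fell in all 3 lines, by -1.18 in HCC1428, -1.29 in MM134 and -1.25 in MM330, and its differences from HCC1428, -0.15 (adjusted p = 0.097) and -0.11 (adjusted p = 0.29), did not pass the test. The former was called with DESeq2 (-0.19, adjusted p = 0.044) and with the compared groups alone (-0.15, adjusted p = 0.0077), and the latter without MM330 siFOXA1_E2 replicate 1 (-0.23, adjusted p = 0.001). TFF1 fell in all 3 lines and further in the lobular ones, from 65.1 to 5.28 CPM in MM134 (-3.63, difference -2.03 ± 0.17) and from 4093 to 931 CPM in MM330 (-2.14, difference -0.54 ± 0.13). Mitosis genes fell further in HCC1428 than in MM134 (29 of 30 differences upward and 1 downward, median 1.28) and than in MM330 (26 of 30 upward and 1 downward, median 0.80). Replication genes fell further than in MM134 (37 of 38 upward, median 1.15) but not than in MM330, where 12 effects were lower and 1 higher (median -0.25). CD36, which rose in HCC1428, was lower by -1.52 after the knockdown in MM134 and higher by 0.65 in MM330. EGR2 did not rise in MM134, where it was at 0.672 and 0.447 CPM. S100A8 rose in all 3 lines. In MM134 it was at 0, 0.0702 and 0.0401 CPM in siNT_E2 and at 2.48, 3.37 and 2.62 CPM in siFOXA1_E2 (adjusted p = 6.1e-08), and in MM330 at 0.0337, 0.034 and 0 CPM and at 4.19, 6.97 and 6.34 CPM (adjusted p = 4.3e-07). With so few counts in the lobular siNT_E2 libraries no fold is given. TMCO1, an endoplasmic reticulum calcium channel, rose in all 3 lines, from 51.1 to 110 CPM in HCC1428 (1.11 ± 0.04), from 19.4 to 78.4 CPM in MM134 and from 8.64 to 33.8 CPM in MM330. In HCC1428 its rise was not particular to the FOXA1 siRNA. TMCO1 was called lower in siFOXA1_E2 than in siMDC1_E2, but that call was lost under 5 of the alternatives. The difference was -0.09 with RLE scaling (adjusted p = 0.086) and -0.09 with DESeq2 (adjusted p = 0.11). In the other losses, each without 1 library, it was -0.12 to -0.11 (adjusted p = 0.058 to 0.07).

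**Figure D5:**
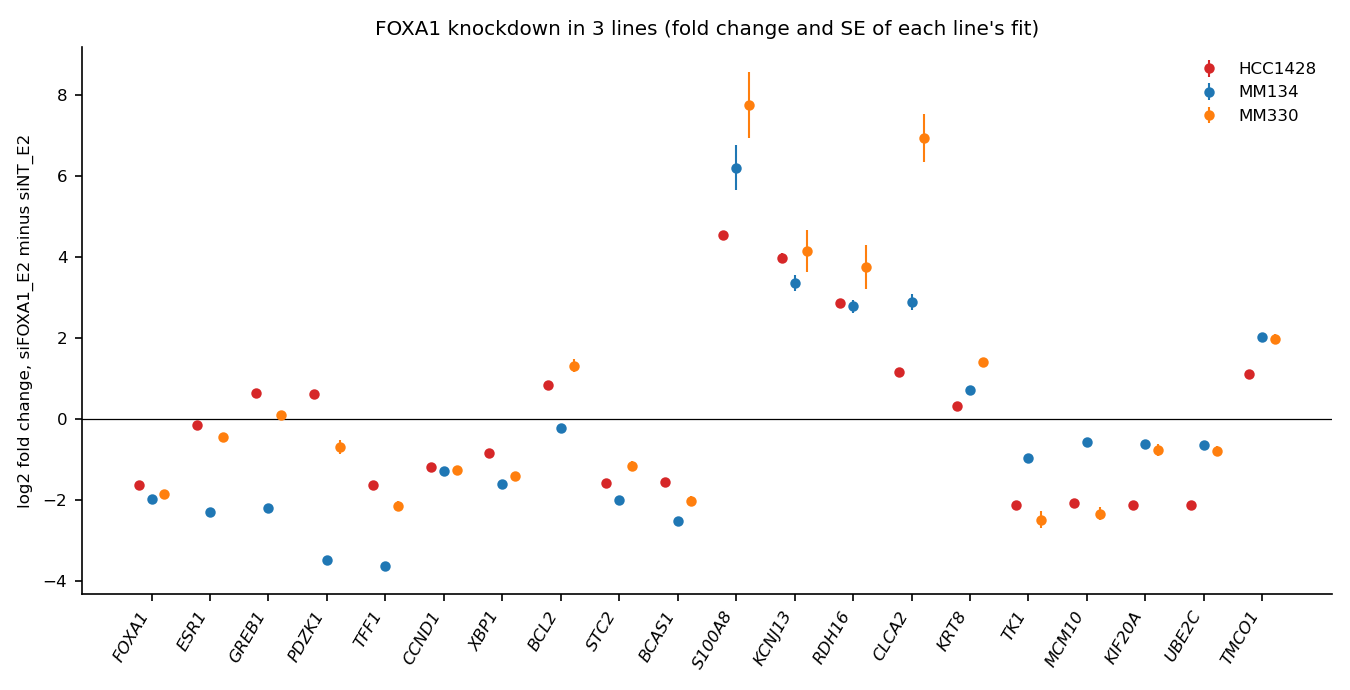
Log2 difference siFOXA1_E2 minus siNT_E2 ± SE of 20 genes in HCC1428, MM134 and MM330, each from the fit of its own line. ESR1 and GREB1 lie at -0.16 and 0.65 in HCC1428 but at -2.29 and -2.21 in MM134, whereas CCND1 lies between -1.29 and -1.18 in all 3 lines.

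Of the genes the naming rule gave for the differences between lines, all but EGR2 and PDZK1 in MM134 had under 10 counts in a lobular siNT_E2 library, so they were barely detected there and no fold is given. Some of these calls rested on 1 library. CDH10 differed by -0.37 (adjusted p = 1) without MM134 siNT_E2 replicate 2, and MTX3 by -0.27 (adjusted p = 1) without MM330 siNT_E2 replicate 3. ZNF385B was another of these genes, and in HCC1428 itself this zinc finger gene rose from 37.5, 38.5 and 38.9 CPM to 64, 62.3 and 66.8 CPM (0.75 ± 0.05).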

How the data were processed

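Polyadenylated RNA of 45 libraries was sequenced as paired reads with a stranded kit, per the labels' protocols. The authors deposited raw counts per gene symbol, and no normalisation was found in the values. Per the submitters' processing notes, STAR 2.6.0a, limma and the build GRCh38 were used. How reads were counted, with which annotation and whether by strand, is not given in the sources used here, so antisense and overlapping genes may share reads. Symbols were matched to GENCODE for identifiers and positions, 56562 of 57353.

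Counts were fitted in R 4.3.3 with edgeR 4.0.16: filterByExpr by group, TMM, and glmQLFit and glmQLFTest on the 15 HCC1428 libraries, with Benjamini-Hochberg adjustment over all genes tested in a comparison. All 45 libraries were fitted together for the interaction contrasts between lines. These gave the 6 comparisons whose calls are counted. Knockdown effects within MM134 and MM330 come from a fit of each line's own 15 libraries, with p-values adjusted over its genes. CPM use TMM-scaled totals. Alternatives were DESeq2 1.42.0, RLE scaling, low counts left unfiltered, limma-voom with limma 3.58.1, the replicate number as a block, a term for libraries with more processed-pseudogene counts, the other libraries alone, the compared groups alone, and leaving out each library. The pipeline was tested on simulated data.

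Named were FOXA1, ESR1, MDC1, FOXA2 and FOXA3, a panel (TFF1, GREB1, PGR, PDZK1, MYC, CXCL12, GATA3, XBP1, CCND1, BCL2, TMCO1 and DEPP1), the called protein-coding genes with the 12 largest rises and 12 largest falls that had at least 10 CPM in a group and groups that do not overlap (5 and 5 in other comparisons), and up to 4 called members of a list by smallest p with members called against its majority. CDH1, IFI6, KIF23, TYMS and MKI67 were chosen after their values were seen. The members, and the 28 lists of 717 genes from general knowledge, were chosen with earlier results of these data known. Promoters are RefSeq sequences. Counts carry no molecular identifiers. Some genes that the rule would name are not reported here.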

Additional observations from a re-analysis of the deposited data

Results flagged for a closer look

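The results below stood out because the effect of FOXA1 knockdown in HCC1428 differed from that in a lobular line, as tested with an interaction term in a fit of all 45 libraries. For MM134 minus HCC1428 such a difference was called for 6531 genes, and for MM330 minus HCC1428 for 4762. FOXA1 itself fell somewhat further in the lobular lines, by a difference of -0.37 in MM134 and -0.25 in MM330, the latter not called when only the compared groups were fitted (adjusted p = 0.062). ESR1 differed by -2.18 and -0.33, and MDC1 by 0.50 in MM134.

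Of the E2-responsive genes, GREB1 (-2.90 and -0.58), PDZK1 (-4.15 and -1.33), TFF1 (-2.03 and -0.54), MYC (-0.98 and -0.58) and XBP1 (-0.80 and -0.60) had lower effects in MM134 and MM330 than in HCC1428. BCL2 had a lower effect in MM134 (-1.10) and a higher one in MM330 (0.47). CXCL12, below 1 CPM in HCC1428, differed by -1.23 in MM134, and by -0.48 (adjusted p = 0.6) without HCC1428 siFOXA1_E2 replicate 2. TMCO1 rose further in both lobular lines (0.87 and 0.83). DEPP1 differed by 1.53 in MM134 and by -1.98 in MM330, where the knockdown changed it by 0.03 (adjusted p = 0.97). EGR2 differed by -4.42 in MM134.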

How the results depend on the processing

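Counts of called genes stayed within 1.5 times of those reported in all 6 comparisons under every alternative that was run. Their split by direction depended on the scaling and the libraries used. The main comparison had 4790 higher and 5032 lower with RLE scaling, and 4877 and 4909 with the compared groups alone. Against siMDC1_E2 the compared groups alone gave 4431 higher and 4469 lower. The larger side changed against siER_E2 with RLE scaling (4049 higher and 3786 lower). It also changed against siNT with the compared groups alone (4267 and 4360). Leaving out 1 library gave 8880 to 9375 calls for siFOXA1_E2 minus siNT_E2, 6773 to 7631 against siER_E2, 7486 to 7658 against siMDC1_E2, 7860 to 8622 against siNT, 5887 to 6258 for the difference of MM134 and 4217 to 4775 for that of MM330. The replicate number as a replicate block gave 8818 calls in the main comparison and 7749 against siER_E2, and 8569 of the 9809 genes (87.4%) were called under the block with the same direction. The groups compared shared only the numbers 2 and 3. Same-numbered libraries showed correlations of 0.0034 and 0.00396 in their deviations, and the other pairs -0.00934 to 0.00578. So few pairs cannot show whether the numbers mark shared cultures, and the main fit took them as names. Of 3416 values of the 244 genes followed in the main comparison, 3290 kept their side of the threshold, 121 lost it, 5 gained it and none changed sign. Leaving out 1 library moved the interferon list's median between -0.41 and 0.19, and it changed sign, to -0.41, without siFOXA1_E2 replicate 2, a library in which IFI6, IFIT1 and OAS2 stood above the others. With no filter on low counts 14 genes of that list were called higher. The 8 early-response genes called lower were 5 with DESeq2 and with the compared groups alone. Ribosome biogenesis had 3 called higher in the libraries of lower pseudogene share.

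Many list members of other lineages had too few counts to be tested (16 of 30 in the basal list passed the filter), and differences at levels under 1 CPM rest on few counts.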

Other observations

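Gene families were counted after their leading members had been seen, so the counts are descriptions. Of all 13661 protein-coding genes tested, 61.6% were called, 3516 higher and 4903 lower, and the call shares of several families lay near that. Of 10 tested S100 genes, 6 were called higher in siFOXA1_E2 than in siNT_E2 and 1 lower, with a median of 0.75. Besides S100A8 and S100A9, S100A14 rose from 1.6 to 8.79 CPM (2.44) and S100A11 from 164 to 245 CPM (0.59), while S100A10 was slightly lower (272 and 255 CPM, -0.09). Of 4 tested guanylate-binding proteins, interferon-inducible GTPases of cell-autonomous defence, 3 were called higher: GBP2 rose from 8.91 to 39.1 CPM (2.14), GBP1 from 6.34 to 20 CPM (1.66) and GBP3 from 6.68 to 11.2 CPM (0.74). Replicate 2 of siFOXA1_E2 was the highest of its group for 27 of 31 interferon-responsive genes. The siFOXA1_E2 libraries were at 41, 38.2 and 38.2 CPM for GBP2, at 19.5, 21.7 and 18.8 CPM for GBP1 and at 11, 11.7 and 10.8 CPM for GBP3, so replicate 2 was slightly highest for GBP1 and GBP3 and all 3 libraries lay above siNT_E2. All 4 tested desmosomal cadherins were called higher, led by DSC1 (3.2 to 19.2 CPM, 2.57) and with DSC2 (0.47) and DSG2 (0.26) changing less, and DSG1 lying below 1 CPM with a call that was lost under 6 alternatives. Of 20 tested keratins 11 were called lower and 4 higher (median -0.38), and of 11 WNT ligands 6 lower and 4 higher (median -0.44). In the family of EGR2, 1 of 3 tested genes was called higher and 0 lower. In that of KCNJ13, 1 of 4 was called higher and 2 lower. Of 9 FZD receptors 3 were called higher and 3 lower, and of 9 MUC genes 4 and 1. Of 7 FAM83 genes 4 were called higher and 2 lower, and of 4 TEAD genes 3 and 1. Of 2 tested KLK genes, 0 were called.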
